A study of Rattus norvegicus with 9 samples.

Results

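Bex1 and its paralogs Bex2 and Bex4 were followed in RNA sequencing of rat heart. Bex1 was chosen by its level in the fetal libraries, already known to be far above that in the adult ones, and the paralogs were taken by name, as every other deposited gene name that begins with Bex and ends in a digit. This gave 3 genes of the 29328 loci into which the deposited transcripts were joined. The 9 libraries, in 3 groups of Sprague-Dawley rats, were compared. The 3 fetal libraries came from the ventricle at embryonic day 18, with RNA isolated in Trizol, and their titles number them as litters. The 3 TAC libraries came from the left ventricle of adults after transverse aortic constriction, an operation that narrows the aorta and loads the heart with pressure. The 3 sham libraries came from the left ventricle of adults that had the same surgery with no constriction. RNA of both adult groups was isolated with the Qiagen RNeasy kit for fibrous tissue. In each fetal comparison, developmental age, the sampled part of the ventricle and the method of isolation therefore cannot be told apart. The labels give neither sex nor the time between surgery and sampling, and they do not say whether each adult library is a separate animal, so the p-values measure a spread between libraries that may be technical.

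Bex genes, named for brain-expressed and X-linked, encode small, largely disordered proteins found in mammals. Bex1 was first studied in neurons, where the rat protein binds the p75 neurotrophin receptor (encoded by Ngfr) and links it to the cell cycle. In the mouse heart, Bex1 protein has been placed in a ribonucleoprotein complex that acts on messenger RNAs with AU-rich elements, among them messages of inflammatory proteins. Bex2 and Bex4 are near neighbours of Bex1 on the X chromosome, in a cluster that also holds the Tceal genes (relatives of a transcription elongation factor) and the Gprasp and Armcx genes. The family has close paralogs, and reads of one can be given to another: RefSeq lists the name Bex2 as an older name of Bex1 and the name Bex1 as an older name of Bex2, so the names here are those of the deposited files.

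Levels below are FPKM (a count of sequenced fragments set per kilobase of transcript and per depth of the library) after rescaling each library by the median of ratios, and differences are on the log2(value + 1) scale unless called a fold, which is a ratio of group means. Calls are by limma with a Benjamini-Hochberg adjusted p below 0.05 over the 14211 loci tested. The depth behind the values, taken from the authors' confidence bounds, was 18.3 to 26.6 implied fragments (in units of 1e+06) in fetal libraries, 6.58 to 12.0 in TAC libraries and 12.3 to 22.3 in sham libraries. Fetal against sham called 6458 loci, 45.4% of those tested (22.4% higher and 23.0% lower in fetal), and fetal against TAC called 6469, or 45.5% (22.7% higher and 22.8% lower in fetal). TAC against sham called 2 loci, 0.0141% of those tested (1 higher and 1 lower in TAC, 0.00704% each), and 613 loci had an unadjusted p below 0.05. A list below with no call between TAC and sham therefore stands as nearly all loci do. Of 15 fetal and stress genes tested, none was called between TAC and sham. Among them Nppa, the atrial natriuretic peptide gene often used as a marker of cardiac load, stood at 1779, 254 and 526 in TAC replicates 1 to 3 and at 542, 423 and 152 in sham replicates 1 to 3. Of the cardiomyocyte markers sought, Actc1, Mb and Nppa were found by name and were abundant in all 9 libraries. Names of 9 sex-linked genes were sought and none was found, so the sex of the libraries was not checked.

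Bex1 was one of the most abundant messages of the fetal ventricle and a middling one of the adult. In fetal replicates 1 to 3 it stood at 434, 623 and 565, above 98.5% to 99.0% of the tested loci of its library. In TAC replicates 1 to 3 it stood at 17.6, 10.2 and 11.6, and in sham replicates 1 to 3 at 11.9, 7.38 and 11.6, which is above 35.2% to 57.3% of the tested loci. The fetal libraries lay apart from all 6 adult libraries, whereas the TAC and sham libraries overlapped. The means were 541 ± 97.0 in fetal, 13.1 ± 3.91 in TAC and 10.3 ± 2.51 in sham (SD, n = 3 each), so that fetal stood 52.6-fold above sham and 41.2-fold above TAC, or 5.60 and 5.28 on the log2 scale. These fetal differences are the values for which the gene was chosen and are given as a description. By the difference between fetal and sham Bex1 ranked 7 of 14211 loci, and by that between fetal and TAC, which shares the fetal libraries, it ranked 13. These are whole-tissue values, in which more cells that express the gene and more RNA per cell cannot be told apart.

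The comparison that the choice of Bex1 did not use is TAC against sham, which asks whether pressure overload moved this fetal-high gene in the adult ventricle. Bex1 was 1.28-fold higher in TAC on the means, with a log2 difference of 0.32 (SE 0.25, 95% interval -0.26 to 0.89, limma adjusted p = 1). An exact two-sided permutation test over the 6 adult libraries gave p = 0.6, where 0.1 is the smallest p that 3 against 3 allows. That test ignored the replicate numbers. By number, Bex1 was higher in TAC than in sham in replicates 1 (17.6 against 11.9) and 2 (10.2 against 7.38) and level in replicate 3 (11.6 in both), and with a replicate block the limma adjusted p was 0.909. TAC replicate 1 was the highest adult library at 17.6 and sham replicate 2 the lowest at 7.38, and the other four lay between 10.2 and 11.9. The interval runs from a small fall to a rise of just under 1 log2 unit. With replicate 1 of each group left out the difference was 0.20 (limma adjusted p = 0.879). Bex1 was read from 8133, 8627 and 10046 implied fragments in fetal replicates 1 to 3, from 80, 39 and 80 in TAC and from 118, 45 and 174 in sham.

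**Figure D1:**
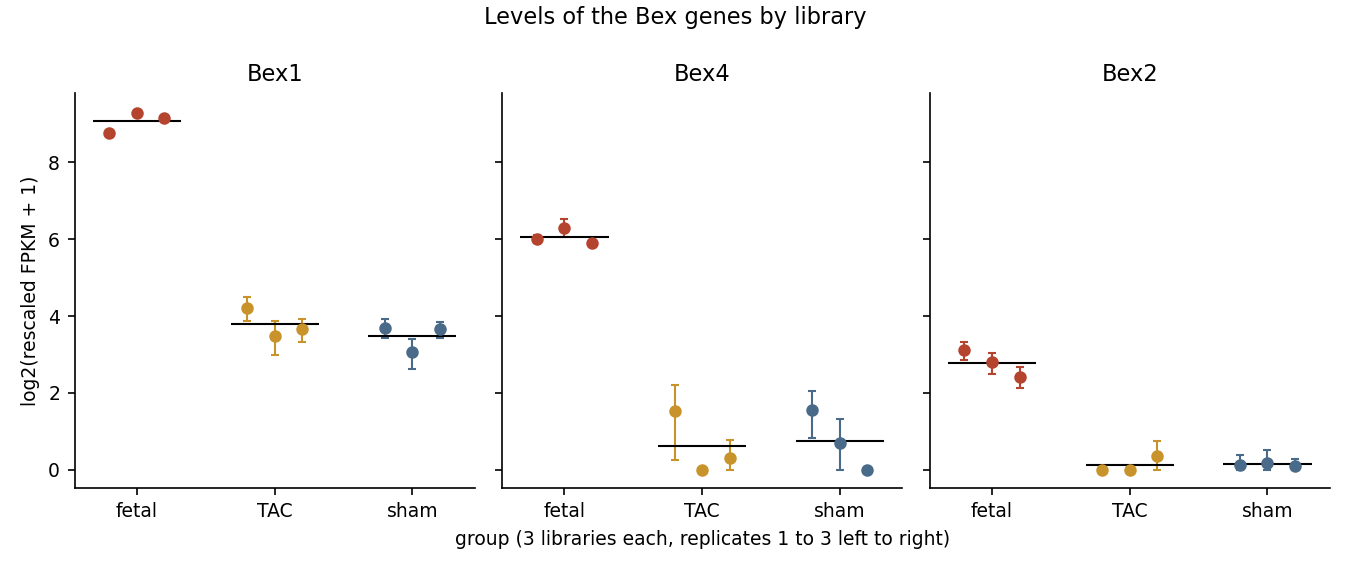
Level of each Bex gene as log2(rescaled FPKM + 1), 1 point per library with replicates 1 to 3 from left to right in the fetal, TAC and sham groups, bars showing the authors' confidence bounds and lines the group means. Bex1 lies near 9 in fetal and near 4 in both adult groups, Bex4 near 6 in fetal and below 2 in the adults, and Bex2 near 3 in fetal and near 0 in the adults.

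Bex4 lies 84.7 kb to the left of Bex1 (rn4 chromosome X, from 123443053 to 123443547, transcript ENSRNOT00000031636) and was the second Bex gene by level. It stood at 63.3, 77.5 and 58.3 in fetal replicates 1 to 3, above 84.7% to 89.0% of the tested loci. It stood at 1.92, 0 and 0.235 in TAC and at 1.95, 0.631 and 0 in sham. All 3 fetal libraries lay above all 6 adult ones, the adult groups overlapped, and 1 library of each adult group was listed at 0. The means were 66.4 ± 9.99 in fetal, 0.717 ± 1.04 in TAC and 0.859 ± 0.993 in sham, a fold of 77.3 for fetal over sham. On the log2 scale Bex4 was 5.31 higher in fetal than in sham (limma adjusted p = 5.91e-05) and 5.45 higher in fetal than in TAC (adjusted p = 5.14e-05). Bex4 and Bex2 met the requirement of a value of 1 in 3 libraries only through the fetal libraries, so that a tested difference was built into their inclusion, and the adjusted p-values of both are given as values only. Between TAC and sham Bex4 differed by -0.14 (adjusted p = 1, exact permutation p = 0.8). The adult values rest on 5, 0 and 1 implied fragments in TAC and on 11, 2 and 0 in sham, and the 95% interval of the difference runs from -1.24 to 0.97. Counted over reference transcripts alone, without the transcripts each library assembled itself, Bex4 was 3.32 higher in fetal than in sham and no longer called (adjusted p = 0.222).

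Bex2 lies 205 kb to the left of Bex1 (from 123322594 to 123324130, transcript ENSRNOT00000042126) and was the weakest of the 3. It stood at 7.60, 5.93 and 4.35 in fetal replicates 1 to 3, a level above 24.2% to 34.8% of the tested loci. In TAC it was listed at 0.00306, 0 and 0.282, and in sham at 0.10, 0.143 and 0.0689. All fetal libraries lay above all adult libraries. The fetal libraries held 282 implied fragments of Bex2 in all and the sham libraries 3, a ratio of rescaled levels of 62.2 with a 95% interval of 21.1 to 303.4 that covers counting error only. On the log2 scale Bex2 was 2.63 higher in fetal than in sham (limma adjusted p = 6.96e-05) and 2.65 higher than in TAC (adjusted p = 6.64e-05), which understates the change of so low a gene. Both adult groups were at or below 3 fragments, and no fold between them is given.

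The order of the 3 genes was the same in every fetal library, Bex1 above Bex4 above Bex2. Since FPKM is a level per length of transcript, the levels of different genes can be set side by side where the assembled lengths are alike. For Bex4 they were not, with a longest transcript of 363, 830 and 962 nt in fetal replicates 1 to 3. Its ratios are therefore less comparable between libraries. Bex1 exceeded Bex4 by 6.86, 8.04 and 9.69 times in fetal replicates 1 to 3. Bex1 exceeded Bex2 by 57.1, 105.1 and 129.9 times, and Bex4 exceeded Bex2 by 8.32, 13.1 and 13.4 times. Fetal replicate 1 had the lowest of each ratio. With the features assembled at Bex1 and Bex4 in that library added, its Bex1 was 575. Bex1 then exceeded Bex4 by 4.53 times and Bex4 exceeded Bex2 by 16.7 times, the highest of the 3 libraries. However, the feature at Bex4 lies within the stretch assembled as Bex4 in fetal replicates 2 and 3. Levels per length of pieces of 1 transcript do not add up, so this sum may overstate Bex4. Across the 9 libraries the log2 levels of Bex1 correlated with those of Bex4 at r = 0.98 and with those of Bex2 at r = 0.97, as a description of points that fall into a fetal and an adult cluster. Over the 6 adult libraries alone the values were 0.46 and -0.35, from genes near their detection limit.

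The deposited gene tables name the genes unevenly, because each library was assembled on its own. Bex1 and Bex2 are each named in 5 of the 9 tables and Bex4 in 7, and none of the 3 fetal tables names Bex1 or Bex2. In all 9 libraries, with or without the name, the level was taken from the transcripts at the locus. The Bex1 transcript (ENSRNOT00000048996, chromosome X, from 123527737) was assembled with a farther end in fetal libraries, at 123529245 to 123529287, against 123529186 to 123529206 in TAC and 123529178 to 123529200 in sham. Its assembled length was 821 to 863 nt in fetal, 762 to 782 nt in TAC and 754 to 776 nt in sham, with no overlap between fetal and adult libraries. Bex2 was longer in fetal too, at 780 to 783 nt against 775 nt in TAC and sham. The share of all loci whose assembled lengths separate in this way was not counted, so this may not be particular to the Bex genes. The fetal libraries held far more Bex1 fragments than the adult ones, and the part of that depth in the reach of the assembly was not tested. The Bex4 locus was assembled at 357 nt in all adult libraries and at 363 to 962 nt in fetal.

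**Figure D2:**
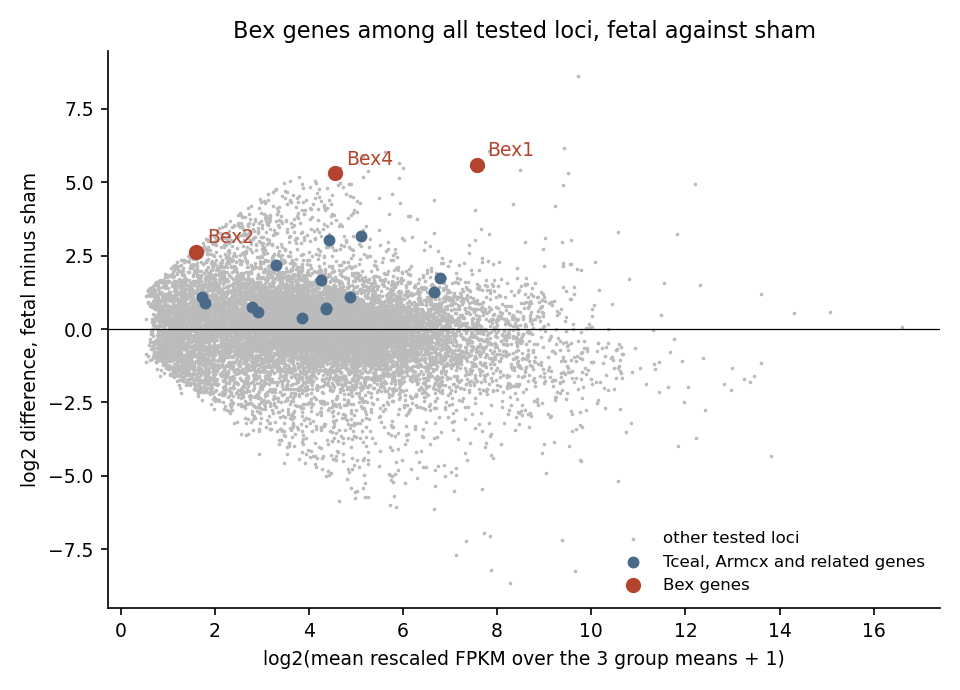
Log2 difference between fetal and sham (vertical axis) against the log2 mean level over the 3 groups (horizontal axis) for the 14211 tested loci, with the Bex genes in red and the Tceal, Armcx and related genes in blue. Bex1 and Bex4 lie at 5.60 and 5.31 on the upper edge of all loci, Bex2 at 2.63 on the left edge, and the blue points lie above 0.

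By the fetal-to-sham difference the named loci just above Bex1 were Hbe1, an embryonic globin, at 6.03, Nt5dc2 at 5.90 and RGD1559671 at 5.64. Those just below were Bmp7, a bone morphogenetic protein, at 5.44, Igf2, the fetal insulin-like growth factor, at 5.40, and Slc16a3, a lactate transporter, at 5.37. Counted over reference transcripts alone, Bex1 was at 5.80, RGD1559671 at 0.76 and Slc16a3 at 2.28. Bex1 had a fetal mean of 541 among these, below Igf2 at 1015 ± 370 and above the others, which ran from 65.6 ± 4.48 for Bmp7 to 171 ± 42.1 for RGD1559671. In sham its mean of 10.3 was below that of Igf2, at 24.2 ± 11.2, and above those of the other five, at 0.545 to 2.47.

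The 8 named loci whose log2 levels followed those of Bex1 most closely over the 9 libraries had Pearson r from 0.995 to 0.997. They were Cdt1 and Cdc6, which license replication origins, Ncapd2, a condensin subunit, Ror2, a Wnt5a receptor, T4AF1_RAT, Kif22, a mitotic kinesin, Pogz, a zinc finger protein, and Myl9, a smooth muscle and non-muscle myosin light chain. Cdt1, the closest, stood at 17.0, 23.4 and 22.8 in fetal replicates 1 to 3, at 4.16, 3.09 and 3.42 in TAC and at 3.21, 2.24 and 3.05 in sham. Pogz had nearly the same profile at a far smaller size, at 20.3 ± 0.300 in fetal, 10.7 ± 0.948 in TAC and 9.72 ± 0.599 in sham. Over the 6 adult libraries r for these 8 lay between 0.69 and 0.97. These libraries are among the 9 used to choose the 8, and no share over all loci was taken, so this is a description. Such likeness was common over libraries that fall into a fetal and an adult cluster: 1714 of 14210 other loci (12.1%) had r above 0.9 and 62 (0.436%) had r above 0.99.

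**Figure D3:**
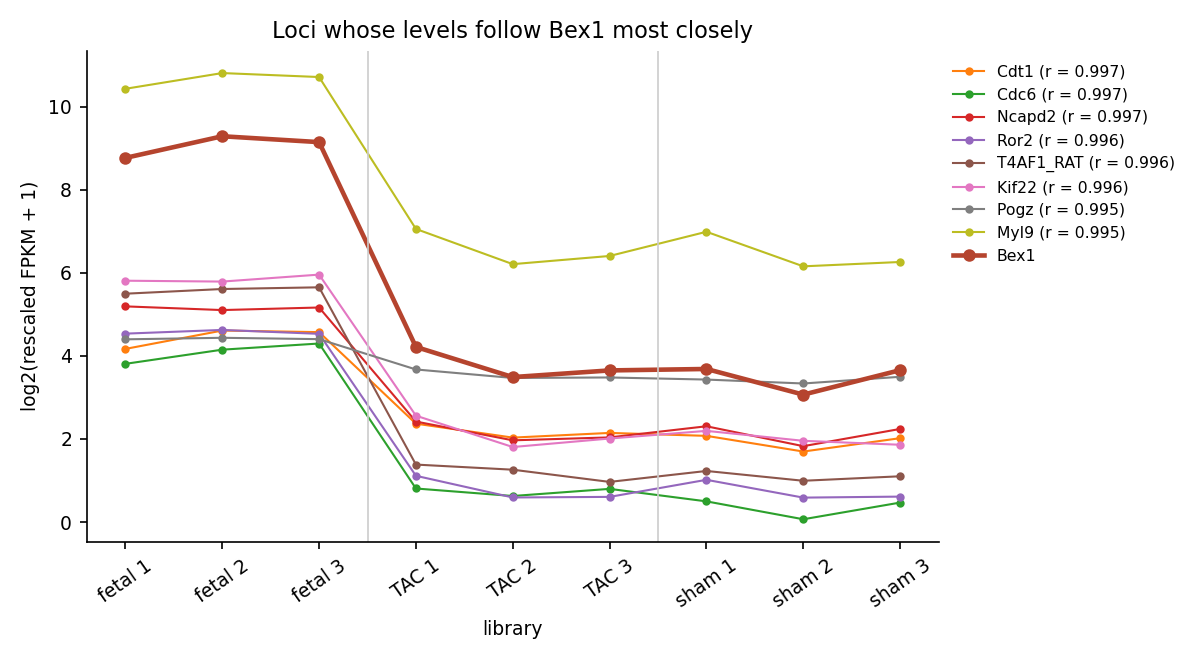
Log2(rescaled FPKM + 1) of Bex1 (thick red line) and of the 8 named loci with the highest Pearson r to it, over fetal, TAC and sham replicates 1 to 3, with lines joining the values of a locus. All 9 profiles are high in the 3 fetal libraries and low in the 6 adult ones, with Myl9 highest in every library.

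The neighbourhood of Bex1 on chromosome X was higher in fetal as well. Of 30 other loci within 1 Mb of its start, the Bex genes left out, 17 were tested, and 10 were called higher and 0 lower in fetal than in sham (58.8%), with a median log2 difference of 1.28. Of the 10, 2 passed the filter on low values only through the fetal libraries, 1 of them within 250 kb. Over all tested loci 22.4% were called higher, with a median of 0.05, and over the rest of chromosome X 153 of 524 were called higher (29.2%) and 62 lower (11.8%), with a median of 0.33. Within 250 kb 6 of 8 tested loci were called higher with a median of 1.87, and between 250 kb and 1 Mb 4 of 9 with a median of 0.88. Against TAC, with the same fetal libraries, 11 of the 17 were called higher in fetal and 0 lower, beside 22.7% higher and 22.8% lower over all loci. Between TAC and sham none of the 17 was called, none of the other 13 loci passed the filter on low values, and 9 of those were listed at 0 throughout. Counted over reference transcripts alone, 5 loci within 1 Mb were called higher in fetal. Calls fell over all loci too in that setting, with 938 called higher in place of 3186.

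The nearest called neighbours were genes of the Tceal family and 2 unnamed loci. Wbp5, now named Tceal9, starts 26.8 kb to the right of Bex1 and stood at 196, 207 and 200 in fetal replicates 1 to 3, at 54.6, 88.1 and 58.5 in TAC and at 54.2, 67.7 and 58.8 in sham (log2 difference between fetal and sham 1.73, limma adjusted p = 0.000149). Tceal8 starts 45.5 kb to the left and averaged 163 ± 31.3 in fetal, 72.4 ± 15.3 in TAC and 66.4 ± 9.74 in sham (1.28, adjusted p = 0.00129). LOC680319, now named Tceal7, starts 9.79 kb to the right and averaged 77.7 ± 26.2 in fetal, 14.0 ± 7.76 in TAC and 8.93 ± 6.86 in sham (3.16, adjusted p = 0.00156), but 0.31 and uncalled over reference transcripts alone. In each of these genes the fetal libraries lay above every adult library. The share of all loci that did so was not counted, but 22.4% were called higher in fetal than in sham. Tceal8 and Wbp5 were well expressed in the adult ventricle. LOC680319 stood there near the middling level of Bex1 (means of 13.1 in TAC and 10.3 in sham), and Bex2 and Bex4 were near 0. A locus known only as ENSRNOG00000043042, 13.4 kb to the left of Bex1, came nearest to the Bex pattern, at 29.5, 46.2 and 39.2 in fetal, 2.21, 0 and 2.29 in TAC and 3.11, 0 and 0.772 in sham (4.32, adjusted p = 0.000583). A transcript with no gene name, ENSRNOT00000045997, averaged 229 ± 23.3 in fetal, 50.0 ± 17.4 in TAC and 37.1 ± 13.5 in sham (2.64, adjusted p = 0.000204).

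Farther out, Gprasp2, a protein that sorts G protein-coupled receptors, averaged 19.1 ± 2.69 in fetal, 3.83 ± 0.916 in TAC and 3.54 ± 1.15 in sham (2.17, limma adjusted p = 0.000235). Bhlhb9, now named Gprasp3, averaged 35.1 ± 2.19 in fetal, 8.69 ± 0.704 in TAC and 10.7 ± 3.95 in sham (1.67, adjusted p = 0.000572). Morf4l2, a chromatin protein 855 kb to the right, averaged 285 ± 38.0 in fetal, 112 ± 7.95 in TAC and 136 ± 18.4 in sham (1.06, adjusted p = 0.000749). MGC109340 and SPCS3_RAT were called too, the 2 that passed the filter only through the fetal libraries. Gprasp2, MGC109340 and SPCS3_RAT lost the call over reference transcripts alone, and Bhlhb9 turned to -0.089. The 7 tested neighbours that were not called between fetal and sham included Tceal1 at 0.38 (adjusted p = 0.419), Armcx5 at 0.59 (0.148) and LOC679974, matched by gene number to Tceal6, at 0.88 (0.0547). The largest difference between TAC and sham among the 17, -1.04 for SPCS3_RAT, was far from a call (adjusted p = 1).

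**Figure D4:**
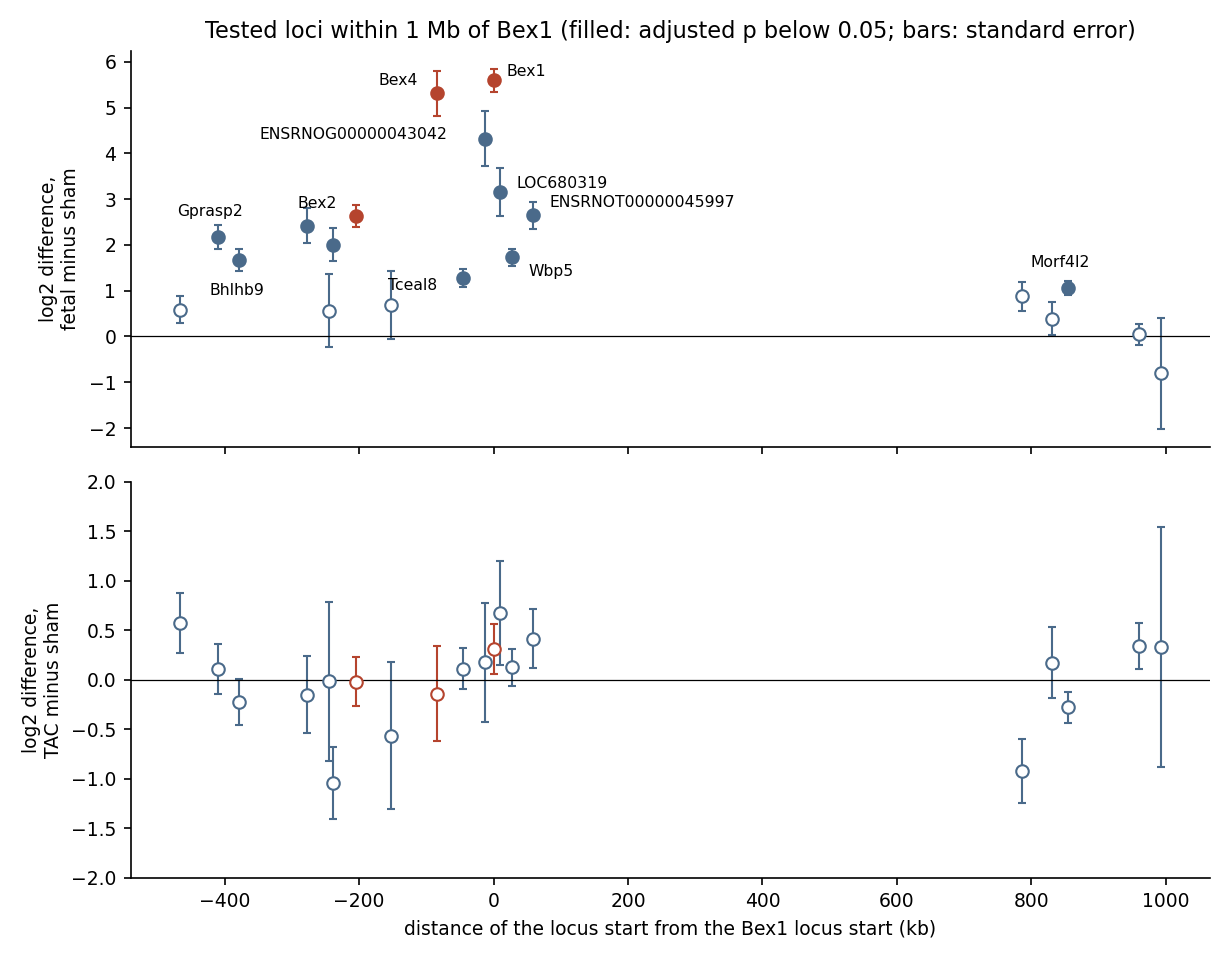
Log2 difference of each tested locus within 1 Mb of Bex1 against the distance of its start from the start of Bex1 in kb, for fetal minus sham (upper panel) and TAC minus sham (lower panel), with bars for the standard error, filled points for an adjusted p below 0.05 and Bex genes in red. In the upper panel the filled points near 0 kb lie between 1 and 6, and in the lower panel every point is open and within about 1 of 0.

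Members of this X-linked cluster are known in mammals to share a conserved non-coding element near their starts, so the start regions of the neighbours were compared. RefSeq windows (build GRCr8, 250 bases before to 50 after the start) were at hand for 8 of the 17 tested neighbours, and those of the Bex genes themselves were not analysed here. The 120 bases before the start are shown for the 4 windows with the motif CACGTG, in capitals, and for Wbp5, whose window does not hold it. The motif was chosen after the sequences were seen. It reads the same on both strands.
Tceal8: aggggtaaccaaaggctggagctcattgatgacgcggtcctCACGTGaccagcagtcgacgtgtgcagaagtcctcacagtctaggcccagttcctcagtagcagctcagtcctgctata
Tceal7 (LOC680319): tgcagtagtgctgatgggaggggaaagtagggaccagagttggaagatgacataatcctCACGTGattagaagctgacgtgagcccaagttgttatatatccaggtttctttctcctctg
Tceal6 (LOC679974): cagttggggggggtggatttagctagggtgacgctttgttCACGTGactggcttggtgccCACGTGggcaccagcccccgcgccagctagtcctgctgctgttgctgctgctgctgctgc
Tceal1: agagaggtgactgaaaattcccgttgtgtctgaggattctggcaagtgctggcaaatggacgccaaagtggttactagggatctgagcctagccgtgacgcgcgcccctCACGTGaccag
Tceal9 (Wbp5): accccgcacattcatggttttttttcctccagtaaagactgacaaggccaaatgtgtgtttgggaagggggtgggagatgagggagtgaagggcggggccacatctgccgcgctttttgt
In build GRCr8 these lie at chrX:103965001-103965120 on the minus strand for Tceal8, chrX:104019964-104020083 on the plus strand for Tceal7, chrX:102632770-102632889 on the minus strand for Tceal6, chrX:104850693-104850812 on the plus strand for Tceal1 and chrX:104037154-104037273 on the plus strand for Tceal9. The Tceal6 window thus lies to the left of the others, whereas LOC679974 starts to the right of Bex1 in rn4. LOC679974 was matched to Tceal6 by gene number, and whether they are the same gene was not checked.

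The capitals begin 79 bases before the start in Tceal8, 61 in Tceal7, 11 in Tceal1, and 80 and 60 in Tceal6. One CACGTG in each of these 4 windows stood within the longer motif TCACGTGA, which also reads the same on both strands. CACGTG was in 6.42% of all 33469 rat windows of this length and TCACGTGA in 0.777%. The windows with the motif belong to 2 genes called higher in fetal, Tceal8 at 1.28 and Tceal7 at 3.16, and to 2 that were not called. These were Tceal1 at 0.38 and, if LOC679974 is that gene, Tceal6 at 0.88. The windows without it belong to Wbp5, Bhlhb9 and Morf4l2, which were called, and to Armcx5, which was not. The motif was thus found in called and uncalled genes alike.

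Taking the Bex, Tceal, Armcx and related genes as a family list, 17 of 28 names were found and all 17 were tested. The 3 Bex genes are among them, Bex1 chosen for its fetal level and the others passing the filter on low values only through the fetal libraries, so the count is also given without them. Of the 14 other genes 9 were higher and 0 lower in fetal than in sham, with a median of 1.08, against a median of 0.05 and 22.4% called higher over all loci. Among the 9, LOC680319, Tceal8, Wbp5, Gprasp2 and Bhlhb9 were also counted above as called neighbours of Bex1. Tceal1, LOC679974 and Armcx5, which were not called, are shared too, so the list and the neighbourhood are not separate results. With the Bex genes 12 of 17 were higher, and 5 over reference transcripts alone, where 938 of all loci were called higher in place of 3186. Against TAC 13 of the 17, the Bex genes included, were higher in fetal and 0 lower, beside 22.7% higher and 22.8% lower over all loci. Between TAC and sham none was called, where 0.0141% of all loci were. Armcx2, a mitochondrial armadillo repeat protein gene farther along the X chromosome, had the largest difference outside the 1 Mb window: 60.6, 44.3 and 49.6 in fetal, 3.62, 5.41 and 4.74 in TAC and 5.39, 5.55 and 5.12 in sham (3.04, limma adjusted p = 8.2e-06). Armcx2 turned to -3.03, called the other way, over reference transcripts alone. Armcx1 at 0.67 and Tcea1 at 0.72 were called near the threshold (adjusted p = 0.0451 and 0.044).

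The receptor with which rat Bex1 protein is known to interact was barely detected. Ngfr stood at 1.19, 0.628 and 1.24 in fetal replicates 1 to 3, at 0.219, 0.308 and 0.758 in TAC and at 1.05, 0.904 and 0.549 in sham, with the groups overlapping (fetal against sham 0.13, limma adjusted p = 0.704). Of 14 tested genes of the neurotrophin receptor pathway 3 were higher and 3 lower in fetal than in sham, a median of 0.29. These shares are near those over all loci, 22.4% higher and 23.0% lower. The ligand Ntf3 (neurotrophin 3) averaged 11.2 ± 2.02 in fetal, 4.71 ± 0.88 in TAC and 5.23 ± 1.61 in sham (0.99, adjusted p = 0.0108). Among intracellular partners, Ndn (necdin, which restrains cell division in neurons) averaged 35.7 ± 7.24 in fetal, 5.82 ± 1.87 in TAC and 5.63 ± 1.81 in sham (2.49, adjusted p = 0.000204). Maged1, an adaptor of the same receptor, averaged 131 ± 16.2 in fetal, 56.2 ± 2.66 in TAC and 50.6 ± 6.36 in sham (1.35, adjusted p = 0.000128). Ripk2, a kinase that couples receptors to NF-kB, and Rela, an NF-kB subunit, were lower in fetal at -0.93 and -0.80. Ntf3, Ripk2 and Rela lost the call over reference transcripts alone, and in values without rescaling, where the median of all loci stood at 2.40, Ripk2 and Rela turned positive. None of the 14 was called between TAC and sham. The locus counted as Rhoa, on chromosome X, spans no more than its transcript of 671 nt. It stood at 38.9 in fetal, 38.5 in TAC and 35.8 in sham replicate 1, against 355 to 479 in the other libraries. It was not called, and whether it is the gene itself was not checked.

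Of 9 tested genes for proteins that bind AU-rich elements, 2 were higher and 2 lower in fetal than in sham, with a median of 0.32, shares near those over all loci (22.4% higher and 23.0% lower). With 1 library left out in turn 1 to 3 were called higher. Elavl1 (HuR, which stabilises such messages) averaged 49.6 ± 8.26 in fetal, 26.8 ± 3.90 in TAC and 23.8 ± 2.64 in sham (1.02, limma adjusted p = 0.00176). Elavl4, a neuronal relative, stood at 2.44, 1.91 and 1.75 in fetal and was listed at 0 in all 6 adult libraries, so it was tested only through its fetal values. Zfp36 (tristetraprolin, which speeds decay of such messages) was lower in fetal, at 14.1 ± 3.05 in fetal, 31.0 ± 1.21 in TAC and 24.8 ± 4.74 in sham (-0.77, adjusted p = 0.00967). The RNase gene Zc3h12a was lower too, at -1.33 (adjusted p = 0.000495). Elavl1, Zfp36 and Zc3h12a lost the call over reference transcripts alone, and without rescaling Zfp36 and Zc3h12a turned positive. Between TAC and sham none of the 9 was called. Loci were counted by their deposited names. The locus named Ybx1, on chromosome 10, spans no more than its transcript of 1517 nt. The locus named Khsrp has 713 nt of transcript between 4369965 and 4624924 on chromosome 4. Neither was called between fetal and sham, and whether they are the genes themselves was not checked.

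Messages of inflammation and interferon response were mostly lower in the fetal ventricle, where Bex1 was high. Of 24 tested, 19 were lower and 3 higher in fetal than in sham, with a median of -1.96, while 23.0% of all loci were called lower and 22.4% higher. Of the 19, however, 12 passed the filter on low values only through the adult libraries, among them Gbp1, Ccl5, Cxcl11, Irf7 and Cxcl9, and of the 3 Ccl20 passed only through the fetal ones, so these counts are a description. The 9 genes that passed on both sides held 7 lower and 2 higher. Gbp1, an interferon-induced GTPase, stood at 0, 0.0363 and 0 in fetal, at 48.6, 30.8 and 35.3 in TAC and at 51.7, 61.1 and 47.0 in sham (-5.74). Ccl5, a chemokine, averaged 0.313 ± 0.457 in fetal, 37.5 ± 9.95 in TAC and 29.0 ± 14.5 in sham (-4.44). Cxcl11 at -4.17, Irf7 at -3.70, Cxcl9 at -3.21 and Gbp2 at -3.20 were lower as well, though Irf7 and Gbp2 lost the call over reference transcripts alone. The 3 that were higher in fetal were Vcam1, an adhesion molecule, at 1.38, Il18, a cytokine, at 0.99 and Ccl20, a chemokine, at 1.73 ± 0.205 in fetal against 0.119 ± 0.207 in sham. Without any 1 of the fetal libraries 1 of the 24 was called higher. Tnf was at -0.97 and not called (limma adjusted p = 0.0598), and Il6, Il10, Csf2 and Ifnb1 were listed at 0 in all 9 libraries. Between TAC and sham none of the 24 was called, with a median of 0.03. Macrophage markers moved with this list: 6 of 6 tested were lower in fetal, and their summed level was 58.8 to 69.2 in fetal libraries, 297 to 493 in TAC and 278 to 514 in sham. Their part in the result was not tested.

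Since Bex1 is known from neurons, markers of nerve cells were read beside it. Of 17 neuron markers 16 were found and 6 tested, with 2 called higher and 1 lower in fetal than in sham, against 22.4% higher and 23.0% lower over all loci. One of the 2, Elavl4, passed the filter only through the fetal libraries, and with 1 library left out in turn 1 to 2 were called higher. The summed level was 47.0 to 62.5 in fetal libraries, 11.7 to 17.0 in TAC and 10.3 to 19.7 in sham, and most of the fetal sum was Uchl1, a ubiquitin hydrolase of neurons, at 50.5, 36.6 and 42.3 in fetal, 5.73, 1.64 and 2.55 in TAC and 4.64, 0.981 and 0.0738 in sham (4.26, limma adjusted p = 0.000525). Chga was listed at 0 in all 9 libraries. Th, the noradrenaline-synthesis gene, was listed at 0 in all but TAC replicate 1 (0.139) and sham replicate 1 (0.440). Stmn2 stood at 0.510 to 2.08 in fetal libraries and at 0 in all adult ones. Chga, Th and Stmn2 did not pass the filter. Prph (peripherin) was lower in fetal at -0.80 (adjusted p = 0.0288), a call that was lost without fetal replicate 2 or 3 or without any 1 sham library. Over reference transcripts alone Uchl1 was at 2.70 and lost the call (adjusted p = 0.315). Schwann cell markers held 0 higher and 2 lower of 4 tested, both of which passed the filter only through the adult libraries, and summed to 3.96 to 5.51 in fetal, 7.94 to 19.4 in TAC and 8.08 to 21.6 in sham. All 22 tested cell cycle genes were higher in fetal, with a median of 3.86, against 22.4% of all loci, although 4 of them (Ccnb2, Ccne2, Cenpe and Rrm2) passed the filter only through the fetal libraries. Their summed level was 1190 to 1558 in fetal, 122 to 141 in TAC and 107 to 132 in sham. Of the other lists, 2 of 4 epicardial, 3 of 6 erythroid and 1 of 4 smooth muscle and pericyte markers were higher in fetal, against 22.4% of all loci, and 2 of those 3 erythroid markers passed the filter only through the fetal libraries. Lower in fetal were 4 of 5 fibroblast, 3 of 5 endothelial and 0 of 2 skeletal muscle markers, against 23.0% of all loci. With 1 library left out in turn 1 to 3 endothelial markers were called lower and 2 to 4 erythroid markers higher. The part of any of these cell types in the Bex levels was not tested.

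**Figure D5:**
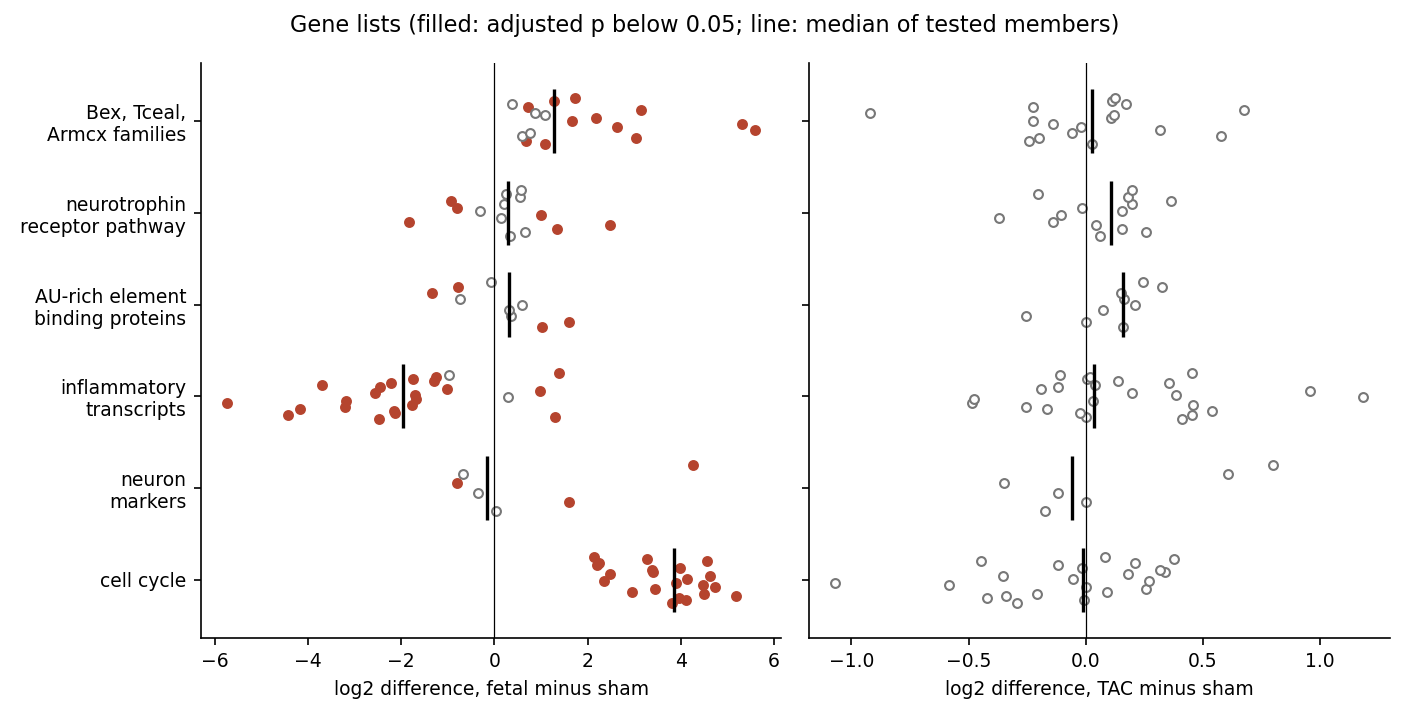
Log2 difference of each tested member of 6 gene lists for fetal minus sham (left) and TAC minus sham (right), filled where the adjusted p is below 0.05, with a line at the median of the list. On the left the family list and the cell cycle list lie to the right of 0 and the inflammatory list to the left at a median of -1.96, and on the right no point is filled.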

How the data were processed

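Library preparation used Illumina's TruSeq RNA chemistry and sequencing the GAIIx instrument, per the labels' protocols and the series design. The submitters' processing notes name rat build rn4, the aligner TopHat (1.3.1), the assembler Cufflinks (1.0.3) and Cuffdiff. The deposited FPKM values come from the authors per gene and per transcript with confidence bounds. In each library they carry a further constant, so libraries cannot be compared as deposited.

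Values were joined through the 39492 reference transcripts. Those that shared a gene in at least 5 libraries formed a locus, and a locus is the sum of its reference and co-assembled transcripts. The Bex genes were summed in this way in every library, whether or not it held the Bex name. Libraries were rescaled by the median of ratios over 13174 loci to a mean total of 1e+06. Implied fragments were derived from the authors' bounds and are estimates. Tests covered loci no shorter than 200 nt that reached 1 in 3 or more libraries, on the log2(value + 1) scale with limma 3.58.1 in R 4.3.3 (all 9 libraries in one fit, trend, 6 residual degrees of freedom). The code was tested on simulated data. Count-based tools were not used, since the files hold no counts.

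The members and the gene lists were chosen with earlier results of these data known. Named were the Bex genes, the 8 loci most like Bex1, the 3 loci on either side of it by fold, all tested loci within 1 Mb, and up to 6 called members per list. Loci without a symbol near Bex1 and some uncalled list members were named after their values were seen. Results of 2 genes that the rule names are not reported here. Libraries with the same replicate number deviated together from their group means. The correlations between groups were 0.47 to 0.51 in replicate 1, 0.22 to 0.27 in replicate 2 and 0.16 to 0.18 in replicate 3. The numbers were therefore taken as a possible pairing, strongest for replicate 1. The main fit did not use them, and its p-values ignore any pairing. The alternatives tried were other scalings, pseudocounts, filters and fits, a replicate block, a term for replicate 1 against 2 and 3, and each library left out in turn.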

Additional observations from a re-analysis of the deposited data

Results flagged for a closer look

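A pair of assembled features at the Bex loci were kept out of the locus sums because they share no reference transcript, and both were seen in fetal replicate 1. The first overlaps Bex1, on rn4 chromosome X from 123527736 to 123528391, and is 656 nt long. Its rescaled FPKM was 141 with 1121 implied fragments, beside 434 for Bex1 itself in that library. Fetal replicate 2 listed a feature at 0 over the same stretch, and none was listed in the adult libraries. The second lies beside Bex4 as assembled in fetal replicate 1, from 123442438 to 123442966, and is 157 nt long. It falls within the stretch assembled as Bex4 in fetal replicate 2 (123442408 to 123443609) and in fetal replicate 3 (123442376 to 123443709). Its rescaled FPKM was 63.6 with 165 implied fragments, beside 63.3 for Bex4. Adding both to the sums, an alternative chosen after seeing the data, put Bex1 at 5.73 and Bex4 at 5.64 log2 units higher in fetal than in sham, against 5.60 and 5.31 without them. Since levels per length of pieces of 1 transcript do not add up, the value for Bex4 may be overstated.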

How the results depend on the processing

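The log2 difference of Bex1 between TAC and sham stayed positive and uncalled under every alternative except values without rescaling, where it was -0.79 (limma adjusted p = 0.149) beside a median of all loci of -1.05. Bex1 was higher in fetal than in sham and TAC under every alternative. Without rescaling these differences were 8.07 and 8.86, with 12175 and 13087 loci called, 4 loci called between TAC and sham and 16 neighbours within 1 Mb called higher, beside medians of all loci of 2.40 and 3.43. With equal library totals those medians were 0.18 and 0.24. With a pseudocount of 10 the Bex1 differences were 4.76 and 4.57, and 1 locus was called between TAC and sham. With replicates 2 and 3 alone Bex1 was 5.65 higher in fetal than in TAC, and 10 loci were called between TAC and sham.

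Over reference transcripts alone Bex4 lost its calls, at 3.32 (adjusted p = 0.222) against sham and 3.50 (0.199) against TAC. That setting called 2064 loci in fetal against sham, 2135 in fetal against TAC and 41 in TAC against sham, and 5 neighbours within 1 Mb. The cause was not tested. A replicate block left the Bex differences as they were and changed no Bex call, with an adjusted p of 0.909 for Bex1 between TAC and sham.

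With each library left out in turn, Bex1 differed by 0.10 to 0.46 between TAC and sham and Bex4 by -0.60 to 0.26, which includes both signs (0.17 without TAC replicate 2, 0.017 without TAC replicate 3, 0.26 without sham replicate 1). Bex1 was 5.40 to 5.75 higher in fetal than in sham and 5.13 to 5.50 higher than in TAC. Between 2 and 5 loci were called in TAC against sham.

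Of 1127 values of 50 named genes under the alternatives, 13 changed sign. Without rescaling these were ENSRNOG00000007501 at 0.83, Ripk2 at 1.47, Rela at 1.80, Zc3h12a at 0.90, Zfp36 at 1.77, Ybx1 at 1.93 and Prph at 1.25. Over reference transcripts alone they were Armcx5 at -0.82, Bhlhb9 at -0.089 and Armcx2 at -3.03. Tceal1 was at -0.072 with replicates 2 and 3 alone. With 1 library left out in turn ENSRNOG00000007501 lay between -1.89 and 0.20. Depth limits Bex2 and Bex4 in the adult libraries, where 0 to 11 fragments were implied, and Bex2 was not tested at a minimum value of 5.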
